A study of Mus musculus with 2 samples.

Results

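The Ndrg family of the mouse has 4 genes, Ndrg1, Ndrg2, Ndrg3 and Ndrg4. All 4 were found by gene name among the 18595 annotated genes with at least 1 read. The tissue is labelled layer of hippocampus, and the hippocampus is a part of the forebrain used in memory. RNA was read by long-read RNA sequencing, in which 1 read runs along 1 transcript and shows which exons that molecule joined. The labels give 1 group of 2 libraries, replicate 1 and replicate 2, from adult mice of strain B6NCrl (C57BL/6), 6 months old and described as male, with no treatment, transgene or second condition. Each library has its own biosample, both share 1 donor identifier, and the labels do not say that separate animals were sampled. Tests below therefore compare the libraries, or reads within 1 library, and Fisher's exact test covers counting error only. In these bulk samples fewer cells of a type and less RNA per cell cannot be told apart.

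The family takes its name from NDRG1, whose gene is repressed by the transcription factor N-Myc. The proteins share a fold of the alpha/beta hydrolase kind but are not known to act as hydrolases. Ndrg1 is known from oligodendrocytes and Schwann cells and is induced by hypoxia. In the brain, Ndrg2 is known as a gene of astrocytes, and Ndrg4 as a gene of neurons. NDRG3 is known as a protein stabilised by lactate in hypoxic cells.

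Replicate 1 held 1330153 reads and replicate 2 held 1366252. Levels are in CPM, reads per 1000000 reads of the library. Each read was counted as 1 transcript whatever its length, so CPM was not divided by length. Levels of different genes are set side by side on that scale, and any effect of length on which transcripts were read was not tested. Of the marker lists, neurons summed to 6617 and 8063 CPM in replicates 1 and 2, oligodendrocytes to 5461 and 7276 CPM, and astrocytes to 3991 and 4247 CPM, with no marker of the 3 lists at 0. Markers of the choroid plexus, the tissue that secretes cerebrospinal fluid, summed to 13962 and 323 CPM in the same order, with 7 of the 7 tested higher in replicate 1. Aqp1, also on that list, had 4 reads and 0 reads and was not tested. The part of this difference in the values below was not tested.

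The exons that the results turn on are small. In each of the 4 genes the third exon of a main annotated transcript has a whole number of codons, 36 bases in Ndrg1 and Ndrg3, 42 in Ndrg2 and 45 in Ndrg4. Near the other end, Ndrg3 and Ndrg4 have a 39-base exon just before the last exon. These exons are shown because their use differed between the genes or between the libraries. Capitals mark the exon and lower case marks the 15 coding bases on either side, 5′ to 3′ as read from the GENCODE M21 transcripts of the mm10 build.
Ndrg1 exon 3, in Ndrg1-201, minus strand, chr15:66959362-66959397: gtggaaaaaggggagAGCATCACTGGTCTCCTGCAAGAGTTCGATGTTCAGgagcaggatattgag
Ndrg2 exon 3, in Ndrg2-201, minus strand, chr14:51911086-51911127: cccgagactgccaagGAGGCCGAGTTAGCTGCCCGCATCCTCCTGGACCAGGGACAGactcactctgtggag
Ndrg3 exon 3, in Ndrg3-202, minus strand, chr2:156958467-156958502: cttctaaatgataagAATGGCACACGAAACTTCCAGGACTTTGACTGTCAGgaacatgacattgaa
Ndrg4 exon 3, in Ndrg4-201, plus strand, chr8:95700113-95700157: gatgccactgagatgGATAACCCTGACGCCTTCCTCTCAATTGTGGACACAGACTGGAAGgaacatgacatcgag
Ndrg3 exon before the last, in Ndrg3-201, minus strand, chr2:156929932-156929970: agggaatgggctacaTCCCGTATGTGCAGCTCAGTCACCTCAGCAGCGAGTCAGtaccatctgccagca
Ndrg4 exon before the last, in Ndrg4-202, plus strand, chr8:95712325-95712363: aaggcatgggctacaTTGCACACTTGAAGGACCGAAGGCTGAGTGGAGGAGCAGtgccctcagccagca

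In both 39-base exons the bases before the capitals are the end of a 52-base exon that all 4 genes share. It is the exon before the last in Ndrg1 and Ndrg2 and the third from the end in Ndrg3-201 and Ndrg4. The 4 copies are shown in full because they mark where the extra exon of Ndrg3 and Ndrg4 sits.
Ndrg1 52-base exon, minus strand, chr15:66933864-66933915: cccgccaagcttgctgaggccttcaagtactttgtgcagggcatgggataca
Ndrg2 52-base exon, minus strand, chr14:51906513-51906564: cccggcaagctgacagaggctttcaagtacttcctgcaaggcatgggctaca
Ndrg3 52-base exon, minus strand, chr2:156931216-156931267: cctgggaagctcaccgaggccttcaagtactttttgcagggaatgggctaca
Ndrg4 52-base exon, plus strand, chr8:95711093-95711144: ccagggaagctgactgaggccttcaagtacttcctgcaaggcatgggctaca

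Any 2 of these copies were identical at 82.7% to 92.3% of bases, with the highest value for Ndrg2 and Ndrg4. The coding sequences of the 4 leading transcripts were identical at 60.5% to 64.7% of aligned columns. The third exons were less alike than that, at 40.4% to 52.8%, and the 39-base exons of Ndrg3 and Ndrg4 were identical at 46.2%. The map of exons shows these positions side by side.

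**Figure D1:**
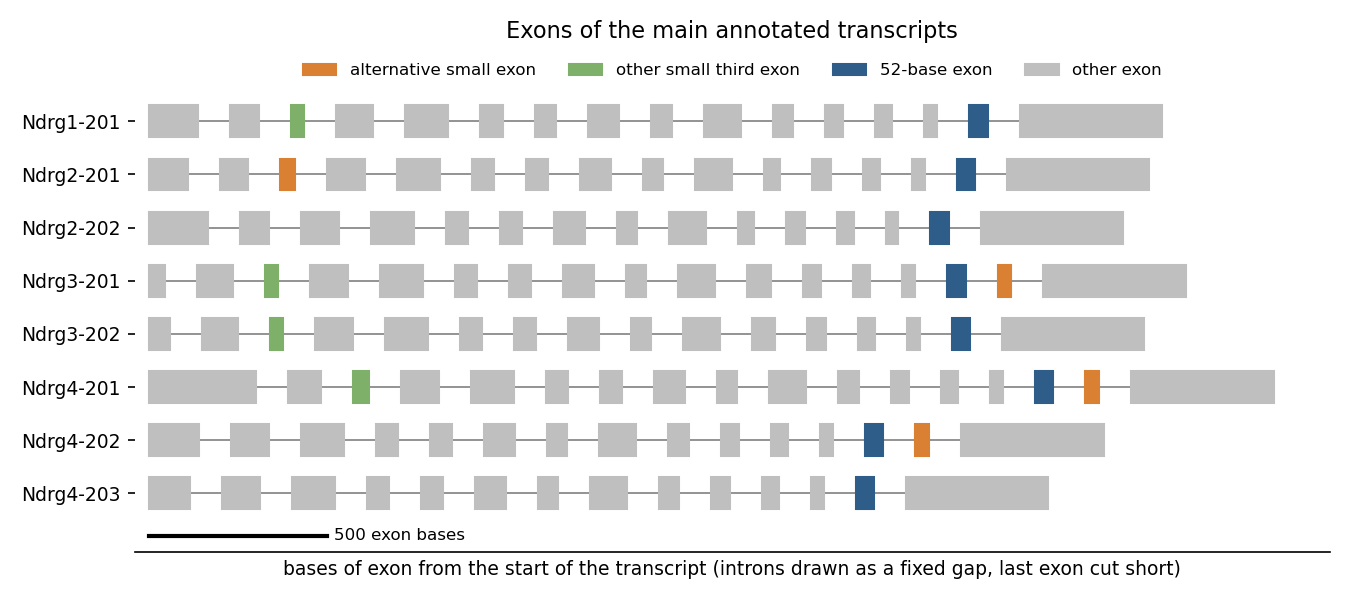
Exons of 8 annotated transcripts, drawn to scale in bases from the transcript start, with every intron drawn as a gap of fixed width and the last exon cut short. Colours mark the alternative small exons of 42 bases (Ndrg2) and 39 bases (Ndrg3, Ndrg4), the other small exons at position 3, and the 52-base exon of each gene; the 39-base exon follows the 52-base exon in Ndrg3-201, Ndrg4-201 and Ndrg4-202.

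Ndrg2 and Ndrg4 were among the most abundant genes of the tissue, and Ndrg1 was the lowest of the family in both libraries. Ndrg2 stood at 1411 CPM in replicate 1 and 1611 CPM in replicate 2, or 1511 ± 141 CPM (SD, n = 2), rank 50 of all annotated genes by mean level. Ndrg4 stood at 1202 and 1577 CPM, or 1390 ± 265 CPM (SD, n = 2), rank 58. Ndrg3 was lower than both in each library, at 592 and 851 CPM, or 722 ± 183 CPM (SD, n = 2), rank 152. Ndrg1 had 104 reads in replicate 1 and 128 in replicate 2, or 78.2 and 93.7 CPM, a mean of 85.9 ± 11.0 CPM (SD, n = 2) at rank 2200, so its values below rest on few reads.

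Order within the family was the same in both libraries, but its top 2 were not always apart. Ndrg2 exceeded Ndrg4 by a ratio of 1.17 (95% interval 1.10 to 1.26) in replicate 1, and the ratio was 1.02 (0.962 to 1.08) in replicate 2. The difference between them is thus smaller than the spread between the libraries. Counting reads on annotated transcripts alone, which leaves out much of Ndrg2, the mean was 785 CPM for Ndrg2 and 1010 CPM for Ndrg4, so the order of these 2 turned. Ndrg4 exceeded Ndrg3 by 2.03 (1.86 to 2.21) and 1.85 (1.72 to 1.99). Ndrg3 exceeded Ndrg1 by 7.58 (6.17 to 9.39) and 9.09 (7.56 to 11.0).

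**Figure D2:**
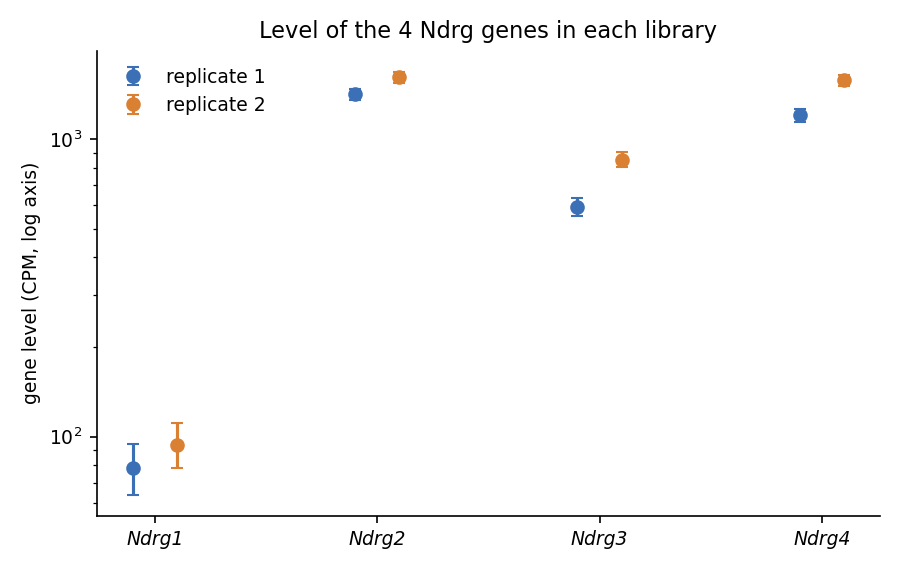
Gene level in CPM on a log axis for each Ndrg gene and library, points with exact Clopper-Pearson 95% intervals (counting error only). Replicate 2 is higher for each gene, from a ratio of 1.14 for Ndrg2 to 1.44 for Ndrg3, and the 2 intervals of Ndrg1 overlap.

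All 4 genes had a higher CPM in replicate 2, and 3 of the 4 passed Fisher's exact test across all genes. Of all genes tested 3.38% were higher in replicate 2 by that test, and 5.95% differed in either direction, 402 of 707 of them higher in replicate 2 (305 of 657 with library sizes scaled by edgeR's TMM method). Ndrg3 had the highest ratio, 1.44, a log2 difference of 0.52 (0.39 to 0.66; Fisher's exact test, adjusted p = 4.26e-13). For Ndrg4 the ratio was 1.31, a log2 difference of 0.39 (0.30 to 0.49; Fisher's exact test, adjusted p = 2.65e-14). For Ndrg2 it was 1.14, a log2 difference of 0.19 (0.10 to 0.28; Fisher's exact test, adjusted p = 0.00106). Ndrg1 had a ratio of 1.20 and a log2 difference of 0.26 (-0.12 to 0.65; Fisher's exact test, adjusted p = 0.592), which counting error spans. The median gene had a log2 ratio of 0.049. None of the 4 passed edgeR's exact test, which adds a spread between libraries common to all genes (adjusted p = 1 for each), and that test called 0.420% of genes. Its spread was estimated from the same 2 libraries taken as 1 group, so it holds the differences under test. The test therefore cannot decide whether small differences exceed the spread. Marker sums moved too: the neuron list had a ratio of 1.22 between replicates 2 and 1 with 5 of 9 genes higher, the oligodendrocyte list 1.33 with 4 of 9 higher, and the astrocyte list 1.06 with 2 of 9 higher and 1 lower. Their part in the differences of the Ndrg genes was not tested.

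Most reads of the family lay on annotated transcripts, to a degree that differed by gene. Annotated transcripts held 57.7% and 67.2% of Ndrg1 reads in replicates 1 and 2, 51.7% and 52.2% of Ndrg2 reads, 72.8% and 76.3% of Ndrg3 reads, and 67.9% and 76.3% of Ndrg4 reads. Ndrg2 differed from the others in its unannotated combinations of annotated splice sites, which held 19.9% (exact 95% interval 18.1 to 21.8) and 21.1% (19.4 to 22.9) of its reads. In Ndrg3 that class held 6.98% (5.30 to 8.99) and 7.48% (6.03 to 9.15), in Ndrg4 3.75% and 3.57%, and in Ndrg1 0 of 104 and 3 of 128 reads. Reads with an unannotated splice site stayed below 6% in every gene and library, and many of those sites lay within 6 bases of an annotated one: 4 of 6 and 2 of 4 such reads in Ndrg1, 28.6% and 19.8% in Ndrg2, 62.5% and 60.7% in Ndrg3, and 51.6% and 58.8% in Ndrg4.

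Genomic reads, which are nearly all unspliced, were a sizeable class in 2 of the genes. They held 16.3% (14.5 to 18.2) of Ndrg4 reads in replicate 1 and 10.4% (9.18 to 11.8) in replicate 2, and 23.1% (15.4 to 32.4) and 12.5% (7.32 to 19.5) of Ndrg1 reads. In Ndrg2 none of 1877 and 2201 reads were genomic. A floor of 3 reads for a count of 0 allows shares of up to 0.160% and 0.136%, and the upper limits of the exact 95% intervals were 0.196% and 0.167%. These limits cover the genomic class alone. Unspliced reads placed in other classes made up 3.46% and 2.73% of Ndrg2 reads in replicates 1 and 2. In Ndrg3 the class held 52 reads in replicate 1 and 1 read in replicate 2, while incomplete matches held 83 and 160. TALON assigned unspliced reads of its 3′ end to different classes in the 2 libraries, so the classes of Ndrg3 are not compared between them. The 3′ end of Ndrg1 overlaps the antisense gene Gm17035, with 14 reads in replicate 1 and 1 in replicate 2, so unspliced Ndrg1 reads are uncertain there. Ndrg3 also hosts the small RNA gene Gm27653 on its own strand.

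**Figure D3:**
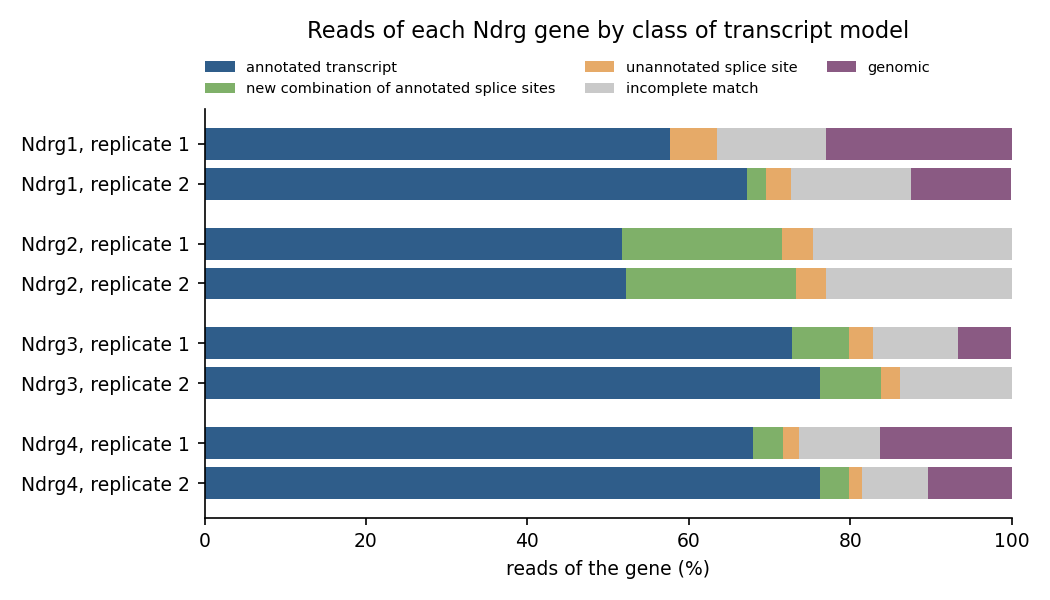
Percentage of each gene's reads by class of transcript model, 1 bar for each gene and library. New combinations of annotated splice sites stand out in Ndrg2, at 19.9% and 21.1% of reads, and genomic reads in Ndrg1 and Ndrg4, at 10.4% to 23.1%.

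Each gene had 1 leading model, and in Ndrg2 it held less than in the other 3. Of reads other than genomic, Ndrg1-201, a coding transcript of 16 exons and 2889 bases, held 71.2% (60.0 to 80.8) and 73.2% (64.0 to 81.1) in replicates 1 and 2. Ndrg3-202, with 16 exons and 2586 bases, held 68.2% (64.7 to 71.6) and 69.4% (66.6 to 72.0); since its unspliced reads were classed differently in the libraries, its share of spliced reads alone, 68.2% and 73.0% (70.3 to 75.6), compares like with like. Ndrg4-202, with 15 exons and 2966 bases, held 64.5% (61.8 to 67.0) and 68.8% (66.6 to 70.8). Ndrg2-202, with 15 exons and 2103 bases, held 42.8% and 37.0%, on 804 of 1877 and 814 of 2201 reads. Ndrg2 was the gene of the family whose leading share differed between the libraries (Fisher's exact test, adjusted p = 0.00742; 3.21% of genes passed). For Ndrg4 the adjusted p was 0.208, and 0.00019 when genomic reads were counted in the total (Fisher's exact test). For Ndrg1 it was 1, and for Ndrg3 it was 1, with 0.605 on spliced reads alone and 0.191 with genomic reads counted.

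Below the leading model, Ndrg2 spread its reads over 3 further models of 5% or more. Ndrg2-201, which adds the 42-base exon 3 to the 15 exons of Ndrg2-202, held 8.84% (7.60 to 10.2) and 15.2% (13.7 to 16.8). An unannotated model of 15 exons that begins at an upstream first exon held 14.5% (13.0 to 16.2) and 12.0% (10.7 to 13.5). A model of 14 exons, an incomplete match listed as beginning within the first intron of Ndrg2-202, held 9.27% and 7.18%. Ndrg3 had 1 such model, Ndrg3-201, which adds the 39-base exon and held 9.78% (7.73 to 12.2) and 6.97% (5.57 to 8.59). Ndrg4 had 2: Ndrg4-201, from an upstream first exon, with 9.04% and 8.86%, and Ndrg4-203, which lacks the 39-base exon, with 5.60% and 6.68%. Counting every chain of introns, 52 of the 132 chains of Ndrg2 found in either library were found in both, 34 of 105 in Ndrg3, 34 of 104 in Ndrg4 and 11 of 23 in Ndrg1.

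The 42-base exon 3 of Ndrg2 was left out of most reads, and it was used more in replicate 2. It was present on 263 of 1616 reads that could show it in replicate 1, or 16.3% (14.5 to 18.2), and on 559 of 1932 in replicate 2, or 28.9% (26.9 to 31.0). The intervals do not overlap, and the difference was 12.7 percentage points (Fisher's exact test over 1416 exons of all genes, adjusted p = 1.19e-16). Of those exons 0.282% passed, namely 4: this one and exons of Ssbp4, Enpp2 and Hp1bp3, which are named after their values were seen. Enpp2 is on the choroid plexus list, at 1606 and 223 CPM, and its 75-base exon was on 8.64% of reads in replicate 1 and 35.1% in replicate 2. Whether reads from choroid plexus carry part of the Ndrg2 difference was not tested.

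Set against library size, reads without the exon were level between the libraries and reads with it were not. Ndrg2 reads that skipped the exon stood at 1017 and 1005 CPM, a log2 difference of -0.02 (-0.13 to 0.09). Ndrg2 reads that held it came to 198 and 409 CPM, a ratio of 2.07 and a log2 difference of 1.05 (0.84 to 1.27). The higher level of Ndrg2 in replicate 2 thus lay, among reads that span the exon, on the form that holds it. In Ndrg3 and Ndrg4 both forms of the 39-base exon had log2 differences above 0: 0.25 (-0.18 to 0.67) with and 0.59 (0.44 to 0.73) without it in Ndrg3, and 0.50 (0.39 to 0.61) with and 0.55 (0.17 to 0.93) without it in Ndrg4.

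Ndrg1 and Ndrg3 used exon 3 in nearly all reads, and Ndrg4 in nearly all reads from 1 of its starts. In Ndrg1 it was on 60 of 60 and 85 of 85 reads, for which a floor of 3 reads allows skipping in up to 5.00% and 3.53%. In Ndrg3 it was on 631 of 658 reads, 95.9% (94.1 to 97.3), and 969 of 1009, 96.0% (94.6 to 97.2). In Ndrg4 the exon lies only downstream of the upstream start, and there it was on 170 of 170 and 228 of 228 reads, for which the floor of 3 reads allows skipping in up to 1.76% and 1.32%. Reads spliced from it made up 14.9% (12.9 to 17.1) and 13.0% (11.5 to 14.7) of all Ndrg4 reads spliced into the exon after it, since most Ndrg4 transcripts start further downstream. Such a small coding exon was thus nearly constant in Ndrg1 and Ndrg3, used in a minority of reads in Ndrg2, and in Ndrg4 tied to 1 of the starts.

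The 39-base exons before the last exon of Ndrg3 and Ndrg4 were used in opposite proportions. Ndrg3 included its exon on 87 of 728 reads in replicate 1, or 12.0%, and on 106 of 1094 in replicate 2, or 9.69%. Ndrg4 included its exon on 1208 of 1307 reads, 92.4% (90.9 to 93.8), and on 1755 of 1904, 92.2% (90.9 to 93.3). The values of the 2 genes are far apart in each library, and neither gene passed the test between replicates (Fisher's exact test, adjusted p = 1 for both). Inclusion averaged 10.8% ± 1.60 (SD, n = 2) in Ndrg3 and 92.3% ± 0.178 (SD, n = 2) in Ndrg4. Ndrg1 and Ndrg2 joined the 52-base exon to the last exon with no exon between them in their main transcripts. The 52-base exon itself was on 1796 of 1796 and 2127 of 2127 reads of Ndrg2, and on 76 of 76 and 108 of 108 reads of Ndrg1.

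In the remaining alternative exons of the family the minor form was less common. The 121-base exon of Ndrg3 was on 99.6% and 98.9% of reads, and its 102-base exon 2, which is only partly coding, on 98.7% and 98.4%. An unannotated 106-base exon of Ndrg2, chr14:51912594-51912699 in the first intron, was on 2 of 1001 and 10 of 1192 reads when both its junctions were required. Either of its junctions was on 17 of 1016 and 38 of 1220 reads, 1.67% (0.978 to 2.67) and 3.11% (2.21 to 4.25). Against skipping from the upstream first exon the shares were 4.87% and 9.07%. Such counts can take in reads that share 1 junction but lack the whole exon. In replicates 1 and 2, 9 and 13 spliced reads had a first exon ending at the same last base. These shares therefore measure use of a junction, not inclusion of the 106-base exon. None of these 3 passed the test between replicates (Fisher's exact test, adjusted p = 0.956 for the Ndrg2 exon and 1 for both of Ndrg3).

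**Figure D4:**
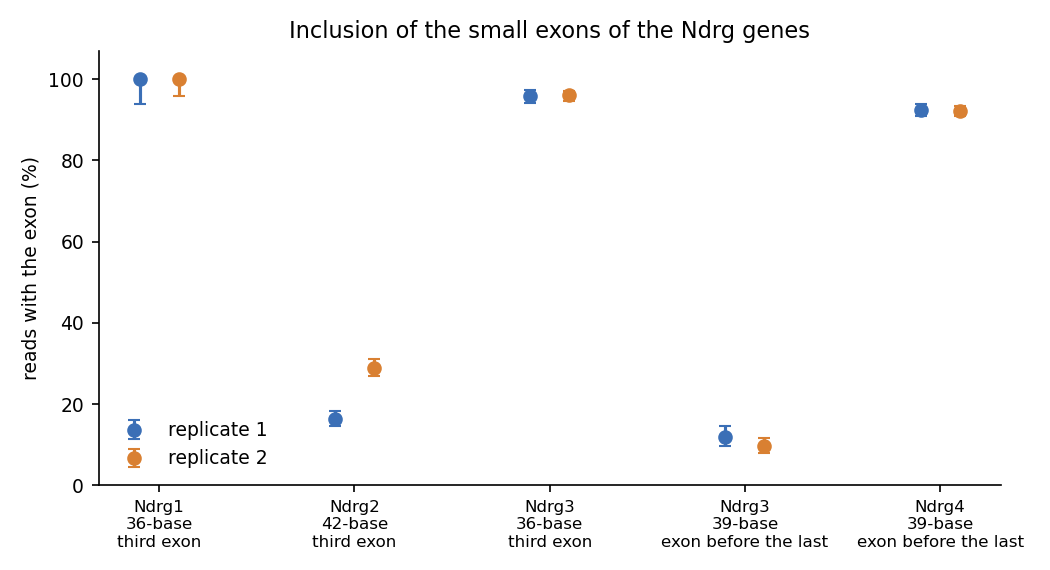
Percentage of reads with each small exon among reads that can show it, by library, points with exact Clopper-Pearson 95% intervals. The Ndrg2 exon is at 16.3% and 28.9% with intervals that do not overlap, the 39-base exon is at 12.0% and 9.69% in Ndrg3 and at 92.4% and 92.2% in Ndrg4, and the third exons of Ndrg1 and Ndrg3 are above 95%.

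First exons were taken from the first intron of each model. An annotated transcript is listed with its annotated ends rather than those of the read, so the exact start base of a read is not known. On annotated transcripts, Ndrg1, Ndrg2 and Ndrg3 used 1 main first exon. It held 57 of 60 and 82 of 86 such reads in Ndrg1, and all such reads in Ndrg2 (970 and 1149) and in Ndrg3 (574 and 887). Ndrg4 used 2 main ones: the downstream first exon of Ndrg4-202 held 86.4% (84.2 to 88.4) and 88.6% (86.9 to 90.1), and the upstream first exon of Ndrg4-201 held 11.1% (9.33 to 13.2) and 10.4% (8.97 to 12.0). The first exon of Ndrg4-208 held 2.49% and 1.03%. Ndrg4-208 is a retained-intron transcript of 2 exons and 505 bases near the 3′ end of the gene. Its first exon ends at the last base of the 39-base exon, so these reads are not counted here as a further main start. The test between replicates was not passed by any first exon of the family on annotated transcripts, where 0.171% of the first exons of all genes passed it (Fisher's exact test).

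The upstream first exon of Ndrg2 was carried by reads outside the annotated transcripts. It ends at chr14:51913924 and belongs to the annotated Ndrg2-209 and Ndrg2-210, which had no read on their own chains of introns. Counting spliced models that leave an annotated first exon by a splice site not used inside the leading transcript, it held 335 of 1357 reads in replicate 1, 24.7% (22.4 to 27.1), and 384 of 1620 in replicate 2, 23.7% (21.7 to 25.9). This way of counting was chosen after the data had been seen. The first exon of Ndrg2-202 held 73.8% and 73.6%. Neither share passed the test between replicates (Fisher's exact test, adjusted p = 1 for both), which 0.0926% of first exons of all genes passed under this count. Another 214 and 237 reads, 11.8% and 11.1% of all spliced Ndrg2 reads, lay on models listed as beginning in the first intron of Ndrg2-202 and running into exon 2 without a splice. Starts of single reads are not listed, so whether these reads began there or were cut short within exon 2 was not tested. In Ndrg4 a start further upstream still had 33 and 41 reads. Its first exon ends at chr8:95677871, inside the annotated span of the gene, where no annotated first exon ends.

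The 42-base exon of Ndrg2 was on a larger share of reads in replicate 2 in each of these groups of reads, a comparison not tested within a group. From the first exon of Ndrg2-202 it was on 16.8% (14.5 to 19.2) and 29.2% (26.6 to 31.9) of reads. From the upstream first exon it was on 14.9% (11.3 to 19.2) and 26.6% (22.3 to 31.4), and on models listed from the first intron on 13.1% (8.87 to 18.4) and 29.5% (23.8 to 35.8). Within a library these shares overlapped, and the upstream exon against that of Ndrg2-202 gave adjusted p = 0.951 and 0.889 in replicates 1 and 2 (Fisher's exact test over all pairs of all genes).

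In Ndrg4 the 39-base exon was skipped on a smaller share of reads from the upstream first exon than from the downstream one, in both libraries. Reads from the downstream first exon skipped it in 78 of 977 cases in replicate 1 and 136 of 1506 in replicate 2, or 7.98% and 9.03%. Reads from the upstream first exon skipped it in 2 of 130 and 3 of 180, or 1.54% and 1.67%. The difference passed Fisher's exact test in replicate 1 (adjusted p = 0.0339) and in replicate 2 (adjusted p = 0.00186), and 11.5% of the 626 tests over all genes passed. All 33 and 41 reads of the start further upstream held the exon. Of 20 such tests in the family, 3 passed. The third concerned Ndrg3 in replicate 2: the 121-base exon was skipped on 26.7% of the few reads that lacked the 102-base exon and on 0.546% of those that held it (Fisher's exact test, adjusted p = 0.00011). Replicate 1 had too few skipped reads for that test.

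**Figure D5:**
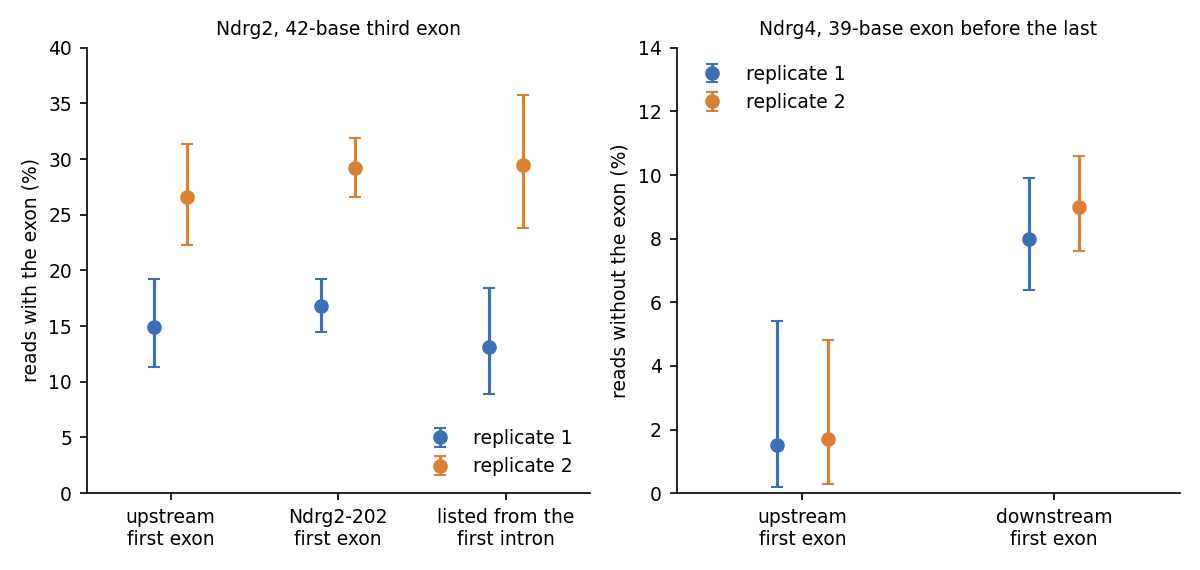
Left, percentage of reads with the 42-base exon of Ndrg2 by first exon or listed start of the model; right, percentage of reads without the 39-base exon of Ndrg4 by first exon, for each library with exact Clopper-Pearson 95% intervals. The Ndrg2 exon is higher in replicate 2 in all 3 groups, and the Ndrg4 exon is skipped on 1.54% and 1.67% of reads from the upstream first exon against 7.98% and 9.03% from the downstream one.

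The sequences before the 2 main first exons of Ndrg4 are shown because these starts differ in use and in the exon they carry. They come from the promoter windows of RefSeq (GRCm38.p6), 5′ to 3′ on the plus strand, and end at the base before the outermost annotated start. Capitals mark TATAAA, the TATA box motif, searched on both strands.
Ndrg4 downstream start, chr8:95702917-95703036: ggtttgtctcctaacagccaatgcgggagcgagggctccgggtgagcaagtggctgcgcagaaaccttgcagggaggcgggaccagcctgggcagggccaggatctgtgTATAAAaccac
Ndrg4 upstream start, chr8:95678022-95678084: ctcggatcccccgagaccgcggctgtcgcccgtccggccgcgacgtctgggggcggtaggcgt

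TATAAA was found before the downstream start and not in the shorter window before the upstream one. Only the bases accac lie between it and the outermost annotated start. The exact start base of the reads is not known, so whether the motif acts as a TATA box there was not tested. Of 32851 RefSeq windows of the same length, 6.34% held it at the longer length and 4.08% at the shorter. The G and C bases made up 61.7% of the downstream window and 77.8% of the upstream one, with 5 and 12 CG pairs. CACGTG, the E-box bound by Myc proteins, was in neither, and 3.66% and 2.11% of windows of those lengths held it. A match is a run of letters and shows no binding.

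Genes known to act on or with the family were read as a list of 22, of which 20 had enough reads to test. By Fisher's exact test replicate 2 had the higher level for 3 and replicate 1 for 2, against 5.95% of all genes in either direction and 3.38% higher in replicate 2. The list's median log2 ratio was 0.01 against 0.049 for all genes. None passed edgeR's exact test. Mycn, the gene of N-Myc, had 3 reads in replicate 1 and 17 in replicate 2 (Fisher's exact test, adjusted p = 0.0453), and with TMM its adjusted p was 0.0505. Its level of 2.26 and 12.4 CPM was far below that of the Ndrg genes. Its partner Max stood at 29.3 and 28.5 CPM.

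Kinases that phosphorylate NDRG proteins were led by Gsk3b, at 545 and 333 CPM, a ratio of 0.611 (Fisher's exact test, adjusted p = 1.62e-14). Without genomic and incomplete reads its log2 difference turned from -0.71 to 0.47 with an adjusted p of 0.582, so its direction depends on unspliced reads. Sgk1, which phosphorylates NDRG1, stood at 88.0 and 58.6 CPM (Fisher's exact test, adjusted p = 0.0782, and 0.0487 with TMM). Akt1 stood at 48.1 and 55.6 CPM.

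Of the oxygen-sensing genes, Egln2, a prolyl hydroxylase, was higher in replicate 2, at 94.7 and 154 CPM (Fisher's exact test, adjusted p = 0.000563). Egln1, the main prolyl hydroxylase of this pathway, stood at 15.8 and 24.9 CPM. Hif1a, the hypoxia-inducible factor, stood at 33.8 and 33.7 CPM, and Vhl, which targets it for degradation, at 72.9 and 85.6 CPM. Trp53, which encodes p53, stood at 39.1 and 40.3 CPM. None of these last 4 passed the test.

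Among partners, Atp1b1, a subunit of the sodium pump, was the highest of the list at 2771 and 3322 CPM (Fisher's exact test, adjusted p = 4.42e-14). Slc1a2, the glial glutamate transporter and also on the astrocyte list, was lower in replicate 2, at 611 and 515 CPM (adjusted p = 0.0206 by Fisher's exact test). Without genomic and incomplete reads its log2 difference turned from -0.25 to 0.14, with an adjusted p of 0.851. Prdx2, a peroxiredoxin, stood at 620 and 553 CPM, Rab4a, a GTPase of recycling endosomes, at 88.0 and 89.3 CPM, and Clic4, a chloride intracellular channel protein, at 72.9 and 71.0 CPM, none of them past the test.

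Positions follow GENCODE M21 on mm10. Ndrg1 lies on the minus strand at chr15:66929318-66969640, Ndrg2 on the minus strand at chr14:51905271-51914158, Ndrg3 on the minus strand at chr2:156927345-156992056 and Ndrg4 on the plus strand at chr8:95676980-95715119. The 42-base exon adds 14 codons to Ndrg2, from 1071 coding bases in Ndrg2-202 to 1113 in Ndrg2-201. The 39-base exon adds 13 codons, from 1125 to 1164 coding bases in Ndrg3 and from 1017 in Ndrg4-203 to 1056 in Ndrg4-202. The upstream start of Ndrg4-201 gives the longest coding sequence of the main transcripts, 1212 bases, against 1182 in Ndrg1-201.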

How the data were processed

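For each library the authors deposited a table of read counts by transcript model, raw and not normalized. Models were made with TALON on mm10 with GENCODE M21, per the file headers and description files; the aligner, versions, platform and filters were not given in the sources used here. All models of a gene were summed, and CPM used all reads of the library. Genes with at least 10 reads over both libraries were compared by the two-sided exact test of Fisher, adjusted after Benjamini and Hochberg at 0.05. Models were matched between libraries by intron chain. An exon entered with 10 reads for inclusion and 10 for skipping, a first exon with 10 reads, a leading model with 20 reads in each library, and a pair of exons within a library with 20 reads and margins of 5. Exon, first-exon and pair p-values were adjusted over all genes; the design had named the 4 genes alone. Intervals (Clopper-Pearson, 95%) cover counting error only. Alternatives were edgeR 4.0.16 (exact test with common dispersion, TMM), DESeq2 1.42.0 size factors, other model classes, no minimum of reads, and each library alone. Fisher's exact test was checked on simulated counts with no spread between libraries beyond counting error, so that check shows nothing on such spread. Python 3.11.15, scipy 1.17.1 and Biopython 1.88 (pairwise identity) were used. The members and lists were chosen with earlier results of these data known. Named genes were the 4 members, list genes of 20 CPM or more and called ones, and models with 5% or more of a member's reads.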

Additional observations from a re-analysis of the deposited data

How the results depend on the processing

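Apart from leaving out a library, 43 values kept their side of the threshold or moved by at most 1 SD. Another 26 moved by more and 3 lost a call. The counts of genes that differ are among these values but were judged by their fold change instead. The SD is that of the 2 libraries and was very small for some shares, so slight shifts also count as moved. No library difference of the 4 Ndrg genes changed direction. Leaving out 1 of 2 libraries gives the value of the other, as printed for each library, and shows nothing on stability. Without genomic and incomplete models the mean level was 58.8 CPM for Ndrg1, 1152 for Ndrg2 and 1085 for Ndrg4; on annotated transcripts alone it was 54.0, 785 and 1010 CPM, so Ndrg2 then fell below Ndrg4. Under edgeR's exact test the log2 differences of Ndrg2, Ndrg3 and Ndrg4 were 0.14, 0.47 and 0.34 with an adjusted p of 1 for each, and 50 genes passed in place of 707, with 439 at an unadjusted p under 0.05. Of the 707, 402 were higher in replicate 2; with TMM it was 305 of 657 and without genomic and incomplete models 459 of 604. On spliced models alone, an alternative added after seeing the data, the leading share of Ndrg3 was 70.6%. Leading shares with genomic models included were 59.4% for Ndrg1, 66.5% for Ndrg3 and 57.8% for Ndrg4, and on annotated transcripts alone 95.2%, 76.9%, 89.2% and 80.1% for Ndrg1 to Ndrg4. With either junction, a count that can take in reads without the whole exon, the 106-base exon of Ndrg2 was at 2.39% in place of 0.519%. The Ndrg4 39-base exon was at 92.5% on annotated transcripts, against 92.3% with an SD of 0.178 in the main count. Over all spliced models, first exons held 78.0% in Ndrg1, 55.5% in Ndrg2 (Ndrg2-202), 88.3% in Ndrg3, and 9.64% and 75.8% in Ndrg4 (upstream and downstream); over models leaving an annotated first exon by a splice site not used inside the leading transcript, 100%, 73.7% and 99.1% in Ndrg1, Ndrg2 and Ndrg3, and 11.3% for the upstream Ndrg4 exon. Settings of model class change which reads are counted; beyond that the cause was not tested. No paired analysis was possible because the 2 libraries belong to 1 group. Depth limits Ndrg1 most.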
